A study of Glycine max with 2 samples.

Results

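The glutathione S-transferase (GST) genes of soybean (Glycine max, cultivar Williams 82) were compared between a salt-treated and a mock-treated pool of seedling RNA. Members were the genes of soybean probe sets assigned to exactly 1 gene whose symbol, or whose synonym in the RefSeq gene table, begins with GST. The rule found 37 genes on 58 probe sets, of 6031 soybean genes on 8677 probe sets with a single gene. Of the 37 genes, 24 carry such a symbol and 13 are listed under a locus number with a GST synonym. The letter after GST gave the class, with 26 tau, 4 phi, 3 lambda, 2 zeta and 1 theta genes. The remaining gene, GSTIR, fits the pattern of letters, but its synonym is GmTIR and its name gives no class, so its own values are given apart from the classes, although it counts among the 37. Members whose current symbol gives no class are called by their synonym, GSTF10 for GST24, GSTU53 for GST3 and GSTU48 for GSTa.

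The seedlings were grown in vermiculite for 14 days at 25 °C with 16 h of light, and then received 150 mM NaCl or water alone. RNA taken at 1, 3, 6, 12 and 24 h was pooled by treatment, and the salinity and the mock pool were each hybridised to 1 Affymetrix Soybean Genome Array. A list of the time points in the design text also names 0 h, and the labels give no organ and no number of plants. With 1 array a group there were no replicates and no test, so every difference below describes these 2 arrays. A pool averages over the times, and in RNA of a mixed tissue a change in the share of a cell type and a change in RNA per cell cannot be told apart.

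GSTs join the tripeptide glutathione, or in legumes its relative homoglutathione, to reactive and often toxic compounds, which are then moved into the vacuole. The tau and phi classes are the large plant classes, known for the detoxification of herbicides and for rising transcript levels under many stresses. Lambda enzymes carry a cysteine at the active site and act on thiols, theta enzymes reduce organic peroxides, and zeta enzymes take part in the breakdown of tyrosine.

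The deposited values are log2 MAS5 signals, a summary that sets each probe of a set against its mismatched partner. Each gene is given by its brightest probe set, judged by the mean of both arrays. A probe set counted as measured where its signal passed a background bound on at least 1 array. It was set at 4.88 (salinity) and 4.94 (mock), the 95th percentile of the probe sets for 2 other organisms that the array carries. Green tissue markers were bright, with all 7 measured genes above the bound on both arrays and CAB3, for a light-harvesting protein, at 14.90 (salinity) and 15.14 (mock). Of these 7 genes, 6 were lower on the salinity array, with a median log2 ratio of -0.32 and a range from -0.62 to 0.20, and the part of that shift in the GST ratios was not tested. Of 13 seed storage and trypsin inhibitor genes, 4 were measured, with a median log2 ratio of -0.04. Of 19 genes on a nodule list matched by name, 9 were measured, with a median of -0.0043. These included N-36A (2.34-fold higher), ENOD55-2 (3.40-fold lower) and LBD23, which matched by its first letters. Of 48 ribosomal RNA probe sets of soybean, 42 had the higher signal in the salinity pool, with a median log2 difference of 0.95. The part of that difference in the ratios below was not tested.

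All 37 members were measured, 36 of them above the bound on both arrays. Of the 37, 11 were at least 2-fold higher on the salinity array and 2 at least 2-fold lower. Over all 5892 soybean genes measured, 5.02% passed 2-fold upwards and 5.67% downwards, against 29.7% and 5.41% of the members. Counted as probe sets, 14 of the 57 measured were at least 2-fold higher (4.33% of all soybean probe sets measured) and 2 were lower (5.36%). The median log2 ratio of the members was 0.40 (0.43 without GSTIR), and that of all genes was -0.0033. The ratio lay above 0 for 29 members and below 0 for 8, while 49.8% of all genes lay above 0. Above the 75th percentile of all genes, a log2 ratio of 0.25, lay 25 members, and below the 25th percentile, -0.32, lay 6. By these counts more of the family lay on the higher side than of all genes measured, while 24 members differed by less than 2-fold. The count of higher members was 15 with a rule of at least 1.5-fold, passed by 11.4% of all genes, and 5 with a rule of at least 3-fold, passed by 2.27%. The count of lower members was 2 at 1.5-fold, where 14.7% of all genes were lower, and 0 at 3-fold, where 1.54% were.

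**Figure D1:**
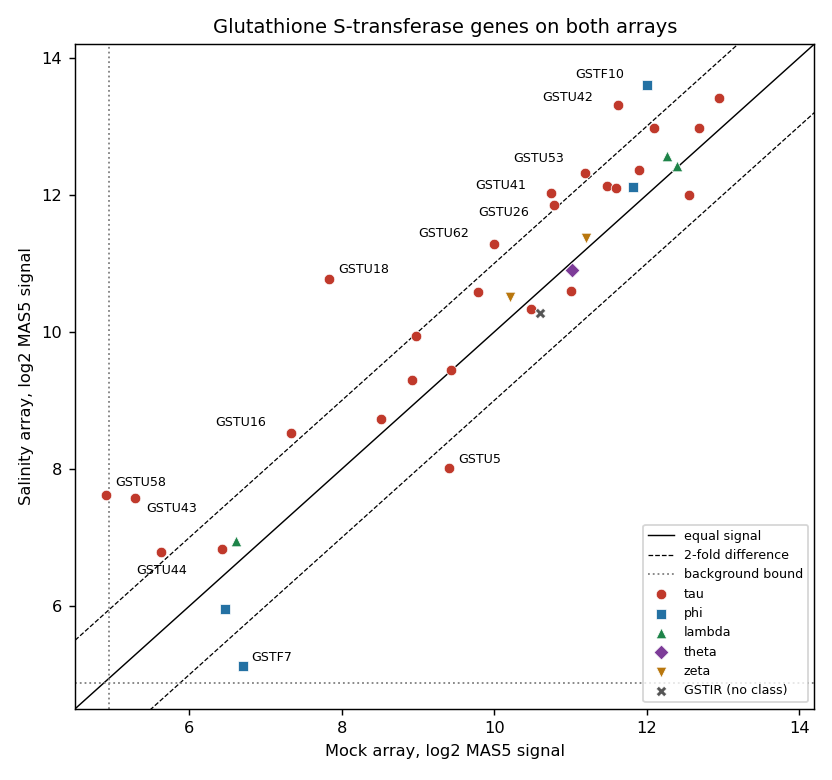
Log2 MAS5 signal of each of the 37 members on the mock array (x axis) and on the salinity array (y axis), by the gene's brightest probe set. Each point is 1 gene, coloured by class; the solid line marks equal signal, dashed lines a 2-fold difference and dotted lines the background bounds. The 11 genes on or above the upper dashed line span the range from dim (GSTU58, left of the mock bound) to bright (GSTF10), and 2 genes, GSTU5 and GSTF7, lie under the lower one.

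The tau class held 10 of the 11 higher genes. Its 26 members had a median log2 ratio of 0.72, with a range from -1.40 to 2.94, and 22 of them lay above 0. GSTU18 (LOC547583) had the highest ratio of the family as computed, although that of GSTU58, given below, is a lower limit. Its log2 signal was 10.78 (salinity) and 7.83 (mock), a 7.69-fold difference. A second probe set for GSTU18 gave 10.97 and 7.58, a log2 ratio of 3.39, and its remaining set was below the bound on both arrays. A clear mock signal stood behind this gene, so its fold does not rest on a value near background.

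GSTU58 and GSTU43 followed, and both were dim in the mock pool. GSTU58 had a log2 signal of 7.62 (salinity) and 4.91 (mock), which is not above the bound, so that it was at least 6.42-fold higher. GSTU43 had 7.58 and 5.28, a 4.89-fold difference from a mock signal just above the bound. Each of these genes had 1 probe set. Their folds depended on the bound, which at the 99th percentile gave log2 ratios of 1.92 for GSTU58 and 1.87 for GSTU43, against 2.68 and 2.29.

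GSTU42 was bright in both pools, with a log2 signal of 13.31 (salinity) and 11.62 (mock), a 3.23-fold difference. GSTU41 had 12.03 and 10.74 (2.44-fold) by its brightest probe set, and the mean over its 3 sets, a log2 ratio of 0.98, was just under 2-fold. GSTU62 had 11.28 and 9.99 (2.44-fold). These 3 genes show that bright tau transcripts were among the higher ones as well as dim ones.

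The other 4 tau genes past 2-fold lay close to that line. GSTU16 (LOC548031) had a log2 signal of 8.52 (salinity) and 7.33 (mock) (2.28-fold), and GSTU44 (LOC100500361) had 6.78 and 5.63 (2.22-fold). With a pseudocount of 16 in place of the bound, GSTU44 stood at a log2 ratio of 0.94, under 2-fold. GSTU53, which also carries the synonym glyoxalase I, had 12.32 and 11.19 (2.18-fold). GSTU26 (LOC547578) had 11.85 and 10.78 (2.10-fold), and just short of the line stood GSTU27, with 9.93 and 8.97 (1.94-fold).

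Within 2-fold lay 15 tau genes, 12 of them above 0. The upper part of these held GSTU48 (log2 ratio 0.87), GSTU13 (0.79) and GSTU37 (0.65). GSTU30 and GSTU1, both bright, had ratios of 0.47 and 0.46, and GSTU17 stood at 0.01. Below 0 were GSTU59 (-0.15), GSTU9 (-0.41) and GSTU3 (-0.56). The single tau gene at least 2-fold lower was GSTU5 (LOC100306119), with a log2 signal of 8.01 (salinity) and 9.41 (mock), a 2.64-fold difference. Tau genes thus covered both directions, with most on the higher side.

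**Figure D2:**
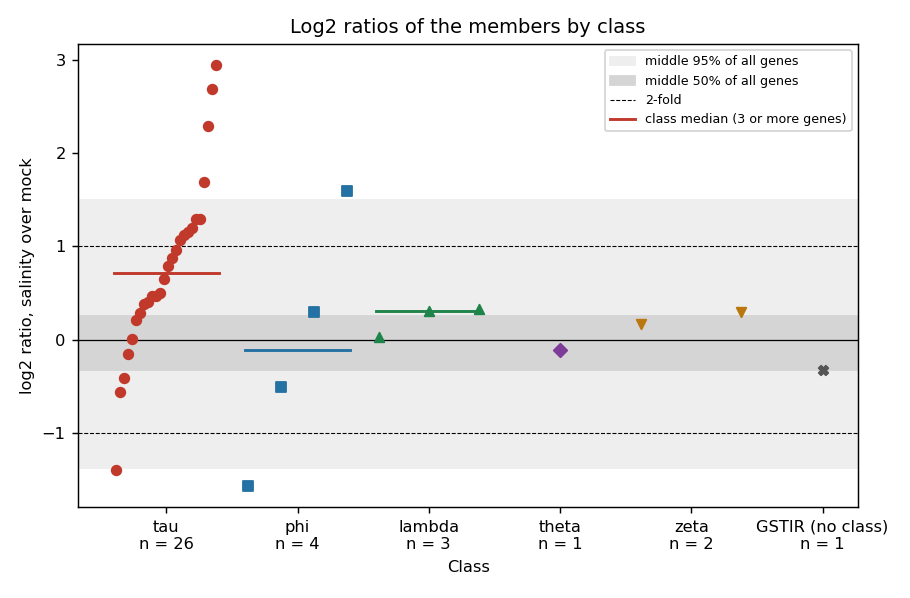
Log2 ratio of salinity over mock (y axis) for each of the 37 members, grouped by class (x axis) and sorted within it; GSTU58, at 2.68, is a lower limit. Grey bands hold the middle 50% and the middle 95% of all 5892 genes measured, coloured bars are class medians for classes of 3 or more genes, and dashed lines mark 2-fold. Tau genes run from -1.40 to 2.94, phi genes lie on both sides of 0, and the 6 lambda, theta and zeta genes stay between -0.11 and 0.33.

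The 4 phi genes went both ways, with a median log2 ratio of -0.11. GSTF10 was bright and past 2-fold on the higher side, at a log2 signal of 13.60 (salinity) and 12.00 (mock) (3.02-fold). Its second probe set gave 12.57 and 10.68 (3.70-fold), in the same direction. GSTF7 was the lowest member of the family, with 5.12 (salinity) and 6.70 (mock) (2.97-fold lower). The salinity signal of GSTF7 was close to the bound, and a bound at the 99th percentile gave a log2 ratio of -1.05 in place of -1.57. GSTF5 stood at 0.29 and GSTF11 (LOC100812502) at -0.51, neither past 2-fold.

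None of the 6 lambda, theta and zeta genes differed 2-fold, which, beside the 5.02% higher and 5.67% lower among all genes, is close to the background for so few genes. Their median log2 ratio was 0.23, with a range from -0.11 to 0.33. GSTL3 had log2 signals of 12.42 (salinity) and 12.40 (mock), GSTL7 (LOC100793025) 12.57 and 12.27, and the dimmer GSTL1 6.94 and 6.61. The theta gene GSTT1 had 10.90 and 11.01. The zeta genes GSTZ2 (LOC100526991) and GSTZ3 had 10.50 against 10.21 and 11.37 against 11.20. By their brightest sets these genes differed by at most 1.26-fold between the arrays, and the second set of GSTZ3 gave 1.29-fold. A difference between classes was not tested. GSTIR, which has no class, had 10.27 and 10.60 (log2 ratio -0.33).

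Probe sets of the same gene were the nearest thing to a repeat measurement, although they share both arrays and both pools. Among 1681 soybean genes with at least 2 measured probe sets, the SD of a single probe set's log2 ratio was 0.32, from the difference between the 2 brightest sets divided by the square root of 2. Among the 13 members with such sets it was 0.20. The 2 brightest sets pointed the same way for 11 of these 13, and for 1284 of the 1681 genes. For GSTU18, GSTF10 and GSTU41, the 3 members past 2-fold with a second set, the second set was past 2-fold too. The same held for 71 of 89 soybean genes whose brightest set was at least 2-fold higher. The second sets of GSTU18 and GSTU41 come from the same transcript cluster as the first, and only that of GSTF10 comes from another. The other 10 of the 13 genes past 2-fold had 1 probe set each, so their values had no such check.

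Some members held sets that disagreed. The remaining set of GSTU41, dimmer at 7.62 (salinity) and 7.31 (mock), had a log2 ratio of 0.31 against 1.29 and 1.35 by the other 2. GSTF5 ran from -0.09 to 0.91 over 3 sets, with 0.29 by the one that stood for the gene. The 4 sets of GSTU47 ran from -0.34 to 0.36, the negative one from a dim set at 5.89 and 6.24. GSTL7 had 0.30 by a bright set and -0.18 by a dim one. The 4 sets of GSTU13 (0.20 to 0.79) pointed the same way. Of the 58 probe sets, 18 carry the suffix _s, _x or _a, which marks probes that can match several transcripts. Without them 31 members were measured, and 9 of these were at least 2-fold higher and 2 lower, beside 5.09% and 5.77% of all genes. GSTU42 and GSTU53 left the higher ones because they had no other set.

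**Figure D3:**
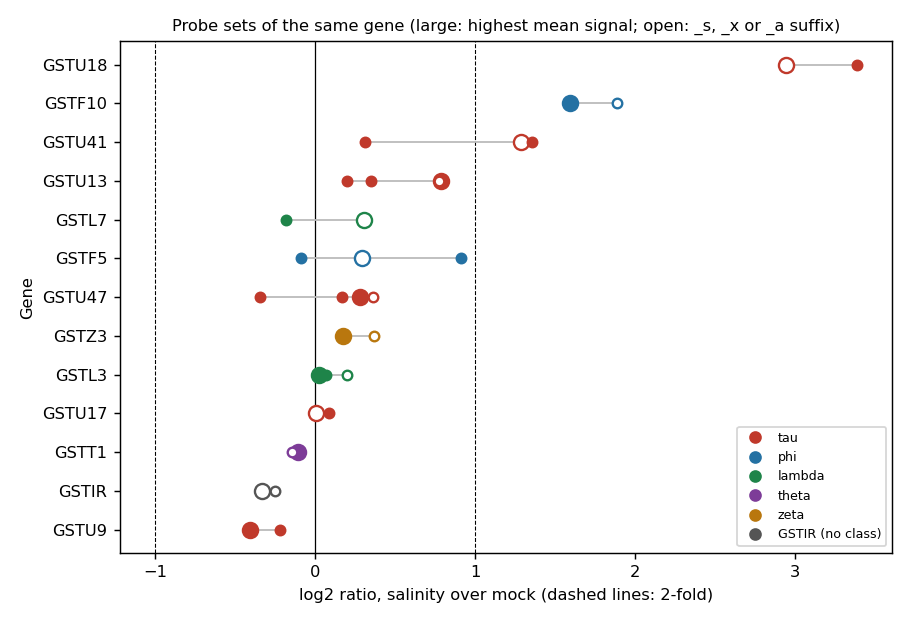
Log2 ratio of salinity over mock (x axis) for every measured probe set of the 13 members with more than 1 (y axis, ordered by the set that stands for the gene). Large points are the set with the highest mean signal, open points carry the suffix _s, _x or _a, and dashed lines mark 2-fold. The sets of GSTU18 and GSTF10 lie beyond 2-fold together, while GSTU41 has 1 set near 0.31 and GSTF5, GSTL7 and GSTU47 span 0.

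GST genes are known to lie in tandem arrays, and the order of genes in the RefSeq table (assembly Glycine_max_v4.0, used for names and neighbours alone) was set beside the ratios. That table holds 66 genes with a GST name, 44 of them tau, and the 29 without a single-gene probe set were not analysed here. Counting GST genes at most 10 places apart in gene order, 19 members fell into 7 groups of at least 2 members. Of the 19, 6 (31.6%) were at least 2-fold higher, in 5 of the groups, and 0 at least 2-fold lower. Beside these stand 29.7% and 5.41% of all 37 members, and 5.02% and 5.67% of all genes. The higher share in the groups was thus close to that of the whole family.

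In 3 of the groups the log2 ratios of the members spread over more than 1. GSTU16, GSTU17 and GSTU18 follow each other with no gene between, and their log2 ratios were 1.19, 0.01 and 2.94. The brightest set of GSTU17 comes from the same transcript cluster as that of GSTU35, a gene elsewhere in the order with a log2 ratio of 0.40, and the other GSTU17 set gave 0.09. GSTU58, at least 6.42-fold higher, adjoins GSTU59 (LOC548029), with log2 signals of 10.33 (salinity) and 10.48 (mock). GSTU1 (0.46) and GSTU3 (LOC547576, -0.56), with 1 gene between them, lay on opposite sides of 0.

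In other groups the ratios were closer. GSTU26, GSTU27 and GSTU28, which adjoin each other, had log2 ratios of 1.07, 0.96 and 0.38, and GSTU30, after 3 other genes, had 0.47. GSTU47 (0.28), GSTU48 (0.87), GSTU51 (LOC548030, 0.21) and GSTU53 (1.12) all lay above 0, as did GSTU37 (0.65) and GSTU41 (1.29). The zeta pair GSTZ2 and GSTZ3 had 0.29 and 0.17. The spread within a group ranged from 0.12 for the zeta pair to 2.94 for the group of GSTU18, while the 2.83 of the group of GSTU58 is a lower limit.

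**Figure D4:**
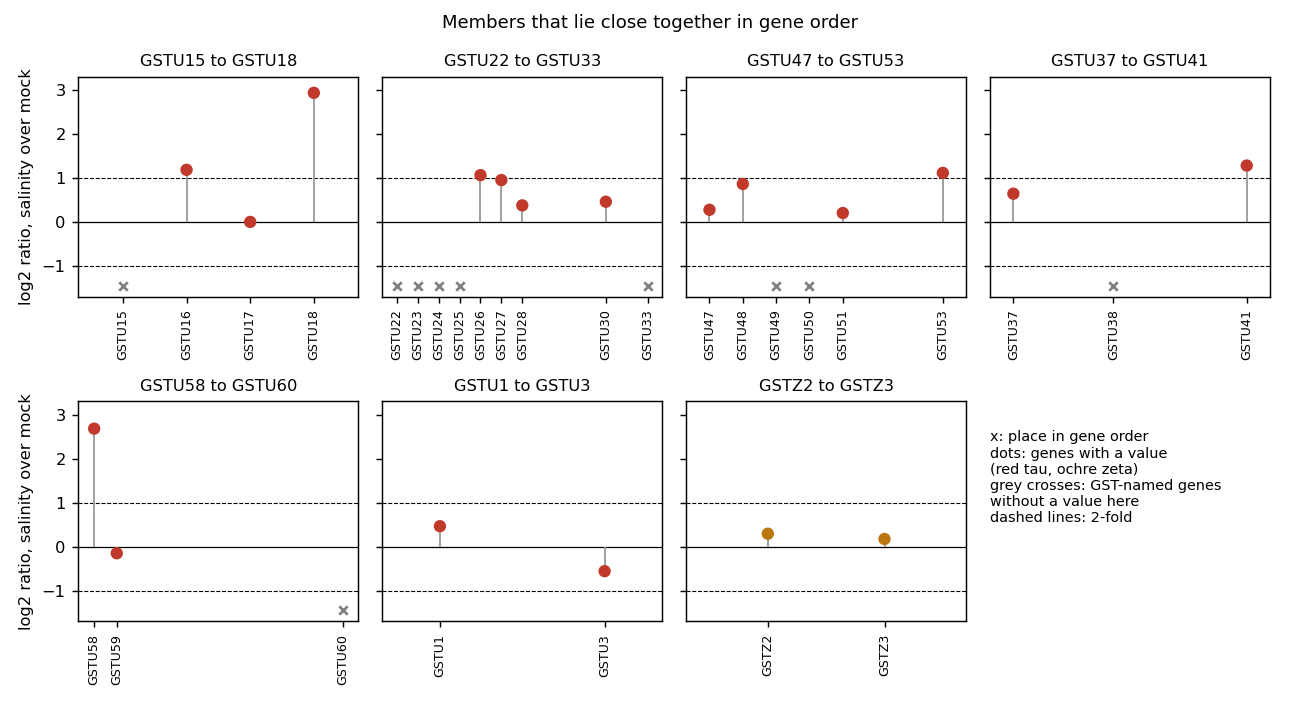
Log2 ratio of salinity over mock (y axis) for members that lie close together in gene order (x axis, place in order within each group, not distance). Dots are genes with a value (red tau, ochre zeta; GSTU58 is a lower limit), grey crosses are GST-named genes without a value here, and dashed lines mark 2-fold. GSTU17, at 0.01, sits between GSTU16 (1.19) and GSTU18 (2.94), and GSTU58 (2.68) beside GSTU59 (-0.15), while the zeta pair is level.

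Higher members were found among bright and dim genes alike. At a mean log2 signal of at least 10, a split chosen after the values were seen, 6 of 23 members were at least 2-fold higher (26.1%) and none was lower, where 3.67% and 4.63% of all genes of that brightness were. Below it, 5 of 14 members were higher (35.7%) and 2 lower (14.3%), beside 6.65% and 6.92% of all such genes. The median log2 ratio was 0.46 for the brighter and 0.39 for the dimmer members. The 2 members at least 2-fold lower, GSTU5 and GSTF7, were both in the dimmer part.

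Other genes of glutathione chemistry, and of families linked to it, were taken from lists by symbol. A match by name can bring in genes outside that chemistry, such as PDR12 and LOC100790824 below, and these stay in the counts. No gene was found for glutathione synthesis or for glutaredoxins and thioredoxins. Over the other 5 lists, 27 genes were measured, of which 2 were at least 2-fold higher and 2 lower, with a median log2 ratio of 0.07. That is 7.41% in each direction, beside 5.02% and 5.67% of all genes, so these lists lay nearer to all genes than the GST family did. Without probe sets carrying suffixes, 4 genes of the lists were higher, beside 5.09% of all genes. The difference between the lists and the family was not tested.

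Genes that recycle glutathione and ascorbate or remove peroxide stayed within 2-fold. The glutathione reductase gene GR had a log2 ratio of 0.25, the ascorbate peroxidase genes APX1 and APX2 had 0.08 and 0.90, and the dehydroascorbate reductase genes DHAR3 and DHAR4 had -0.43 and -0.70. Dehydroascorbate reductases belong to the GST superfamily, and DHAR3 is also named GmGSTDHAR1, so this branch of the superfamily lay below 0 in both measured genes. The 10 glyoxalase genes, which clear methylglyoxal with glutathione as a cofactor, had a median of -0.12 with 3 above 0, and included GLYI-6 (2.28-fold higher) and GLYI-20 (4.02-fold lower). A second set of GLYI-19 was 2.05-fold higher, against a log2 ratio of 0.34 by its brightest set. Second sets of GLYI-7 and GLYII-6 were lower, within 2-fold.

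The 10 genes of sulfur assimilation, which supplies the cysteine of glutathione, had a median log2 ratio of 0.07. OAS-TL6, for an enzyme of cysteine synthesis, was 2.37-fold lower, with a log2 signal of 9.25 (salinity) and 10.49 (mock). Second sets of OAS-TL1 and OAS-TL3, genes of the same enzyme family, were 2.82-fold higher, against log2 ratios of 0.27 and 0.07 by their brightest sets, and a further OAS-TL3 set, below the bound on the salinity array, had a log2 ratio of -0.79. SAT1 stood at 0.67, and a further gene, LOC100790824, is in this list through an older name SAT1 that it shares with a nodulin. Of ABC transporters, a family that includes the vacuolar pumps of glutathione conjugates, PDR12 alone was found, but it belongs to another branch of that family. PDR12 was 7.56-fold higher, with a log2 signal of 8.45 (salinity) and a dim 5.54 (mock). Its other sets, below the bound on the mock array, were at least 3.45-fold and 5.58-fold higher. STF2, a bZIP factor, was the single gene of the list of factors that bind TGACG motifs, with log2 ratios of 0.45 by its brighter set and 2.12 by the other.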

How the data were processed

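RNA of 1 salinity pool and 1 mock pool was measured on 1 array each, with groups taken from the labels. The authors made the deposited values with MAS5, per the submitters' processing notes, and the values are on a log2 scale. Other steps, versions included, were not given in the sources used here. After unlogging, the 2% trimmed means were 498.8 (salinity) and 498.5 (mock), so the arrays had a common level. The table holds 61035 probe sets, 37593 of them soybean.

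Gene names came from the platform annotation and, by gene identifier, from RefSeq (6010 of 6031 genes matched). Signals below an array's bound were raised to it, the ratio is salinity minus mock on the log2 scale, and each gene was represented by its brightest probe set on average. At least 2-fold counted as a difference. Lists were matched on symbols and synonyms. Every member could be named, with both signals for those past 2-fold, the extremes of each class and genes with discordant sets. Members and lists were chosen with earlier results of these data known. The steps were tested on simulated data (Python 3.11.15, pandas 2.3.3, statsmodels 0.14.6). Alternatives were 3 scalings, other bounds, a pseudocount of 16, other rules for probe sets and genes, and other fold rules. The number of arrays limits the precision.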

Additional observations from a re-analysis of the deposited data

How the results depend on the processing

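The median log2 ratio of the members ran from 0.33 to 0.46 over 9 alternatives and 2 added after the data were seen (current symbols alone, and without GSTIR, which gave 11 higher and 2 lower). The tau median ran from 0.59 to 0.72, the phi median from -0.30 to -0.06 and the lambda, theta and zeta median from 0.10 to 0.23. The number of members at least 2-fold higher was 9 to 11 under every scaling, bound and probe set rule, with 2 lower in each; GSTU41 dropped out with the mean over probe sets (0.98), GSTU44 with a pseudocount (0.94), GSTU58 where both arrays had to pass the bound, and GSTU42 and GSTU53 without suffixed sets. It was 5 with 0 lower at 3-fold, where 1.54% of all genes were lower, and 7 with 1 lower among the 24 members with a current GST symbol, 29.2% and 4.17% of them. Among the genes of the other lists 4 rather than 2 were higher without probe sets carrying suffixes, and 2 were lower, beside 5.09% and 5.77% of all genes. GLYI-19 and OAS-TL3 joined the higher ones, and GR, which had suffixed sets alone, dropped out. No alternative turned the sign of a member past 2-fold, in 135 values of 13 genes, and 128 moved by less than the 0.32 spread between probe sets. The 7 that moved more were GSTU58, GSTU43 and GSTF7 under the 99th percentile bound or a pseudocount, which by construction shrink ratios of dim genes, and GSTU18, at 3.39 without its suffixed set. These counts do not measure precision, since the 13 genes were picked for large ratios and every alternative reuses the same arrays. Alternatives that only leave out genes cannot move a ratio, nor can averaging over probe sets for a gene with 1 set. No paired analysis was possible because each group has 1 array, and none could be left out.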

Other observations

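A further 4 probe sets on the array are assigned to 2 genes at once, at least 1 of them GST-named, and so belong to no member. Of these, 3 share a transcript cluster and are assigned to neighbouring tau genes of the group that holds GSTU26. Their log2 signals were 12.75 (salinity) and 9.37 (mock), 12.88 and 9.56, and 9.47 and 8.28, which is 10.4-fold, 10.0-fold and 2.28-fold higher on the salinity array. The first exceeds the 7.69-fold of GSTU18 by the set that stands for it and is close to the 10.5-fold of its other set. The last of the 4 sets, assigned to a pair of lambda genes, had 6.57 and 5.58, a log2 ratio of 0.99, where the 3 lambda members lay between 0.03 and 0.33. Which gene of each pair gave these signals cannot be read from the array.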
